A study of Mus musculus with 6 samples.

Results

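The Tcl1 family of the mouse comprises Tcl1 and the genes Tcl1b1, Tcl1b2, Tcl1b3, Tcl1b4 and Tcl1b5, which lie side by side on chromosome 12. The members were found by their symbols among the 25631 genes of the deposited expression table, and all 6 were listed, with 1 row each. The 6 RNA libraries were made of oocytes from ICR mice aged 14 months, punctured from large antral follicles after the mice received equine chorionic gonadotropin, which drives follicle growth. The 3 control libraries came from untreated mice given water. The 3 aminophylline libraries came from mice that drank aminophylline at 4.0 mM for 1 week and then plain water for another 3 weeks. Aminophylline is a theophylline derivative that inhibits phosphodiesterases, the enzymes that break down cAMP, and the comparison addresses what it does to the transcriptome of aged oocytes. How many mice or oocytes went into a library is not given in the sources used here.

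TCL1 proteins are small barrel-shaped proteins that bind the pleckstrin homology domain of the kinase Akt and promote its activation. TCL1 was found as an oncogene of T cells and is otherwise best known from lymphocytes, oocytes and cleavage embryos, and female mice that lack Tcl1 have embryos that cleave poorly. In the mouse the neighbouring Tcl1b gene was duplicated several times, so that a single human relative, TCL1B, stands beside a row of mouse genes.

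In the order of the chromosome (GRCm38, GENCODE M21), Tcl1b2 lies at chr12:105146014-105155225, Tcl1b1 at chr12:105159690-105166625, Tcl1b5 at chr12:105176344-105181145, Tcl1b3 at chr12:105191043-105195612 and Tcl1b4 at chr12:105201957-105206993, all on the + strand. Tcl1 lies last, at chr12:105216750-105222793, on the − strand, so that it is read towards the Tcl1b genes. The cluster spans 76.8 kb, 0 other annotated genes overlap it, and the longest transcript of each member has 4 exons.

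The duplication can be read in the promoters. RefSeq promoters of GRCm38.p6 (250 bases before to 50 after the RefSeq start) were found for all 6 members. The 10 pairs of Tcl1b promoters were 92.3% to 98.6% identical over the aligned bases. RefSeq starts Tcl1b2 at 105147019 and Tcl1b4 at 105202395, while the GENCODE genes begin further upstream, at 105146014 and 105201957. The stretches of these genes shown here therefore lie inside their GENCODE spans. The stretches shown here hold the E-boxes CACCTG and CAGGTG in capitals, the same 6 letters read from either strand. E-boxes are the class of motif bound by basic helix-loop-helix factors. The 5 Tcl1b stretches lie on the + strand at chr12:105159616-105159673 (Tcl1b1), chr12:105146945-105147002 (Tcl1b2), chr12:105190955-105191012 (Tcl1b3), chr12:105202334-105202391 (Tcl1b4) and chr12:105176270-105176327 (Tcl1b5).
Tcl1b1: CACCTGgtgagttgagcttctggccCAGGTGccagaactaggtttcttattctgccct
Tcl1b2: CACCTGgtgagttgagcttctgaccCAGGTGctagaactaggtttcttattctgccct
Tcl1b3: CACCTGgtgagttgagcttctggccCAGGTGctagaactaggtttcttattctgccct
Tcl1b4: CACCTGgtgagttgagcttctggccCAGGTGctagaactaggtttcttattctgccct
Tcl1b5: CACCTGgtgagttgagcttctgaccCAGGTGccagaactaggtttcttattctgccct

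Of these 58 bases, 56 were identical in all 5 genes and 2 differed between them, and Tcl1b3 and Tcl1b4 had the same stretch. Each holds both E-boxes, with their first bases 25 bases apart. CACCTG on either strand occurred in 20.2% of the 32851 mouse promoters of this length, and at least 2 copies occurred in 2.88%. The pair in this orientation and at this spacing, which was chosen after these sequences were seen, occurred in 7 promoters (0.0213%), those of the 5 Tcl1b genes, Cldn4 and 1700097N02Rik.

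The promoter of Tcl1 was different. The 100 bases before its RefSeq start (chr12:105222738-105222837, − strand) are shown with its CACCTG and with CCGCCC, the reverse complement of the GC box GGGCGG, in capitals.
Tcl1: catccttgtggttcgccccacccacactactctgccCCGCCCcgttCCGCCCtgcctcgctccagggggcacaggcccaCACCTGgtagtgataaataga

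This promoter holds 1 CACCTG, which begins 21 bases before the RefSeq start, and 2 GC boxes. RefSeq places that start at 105222737 and GENCODE at 105222793, so the CACCTG lies inside the GENCODE gene. GGGCGG on either strand occurred in 35.7% of all promoters and was found in none of the 5 Tcl1b promoters. TATAAA, on either strand, occurred in 13.6% of all promoters and in 0 of the 6 of the family. A match is a run of letters and not a measured binding site.

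The libraries held 14112341 (control 2) to 33641283 (control 1) recovered reads, and FPKM values (reads scaled by transcript length and library size) that summed to 510206 in control 3 and up to 587775 in control 2. All 19 oocyte markers that the table lists, of 20 in the list, passed the filter on low values, with a summed FPKM of 27447 to 38738 in control and 31415 to 36646 in aminophylline libraries. Of these 19, 3 (Figla, Npm2 and Zar1) had an unadjusted limma p under 0.05, all higher with aminophylline, where 4.41% of all tested genes were higher by that rule, and 0 had an adjusted p under 0.05. In an alternative model with the replicate number as a block, Zar1 alone of them had a limma adjusted p under 0.05 (0.0495). By that model 47 of all tested genes (0.455%) did. The groups did not overlap in 4 of the 19 (21.1%, against 12.5% of all tested genes), with Zp2 lower and the other three higher. Of 13 listed granulosa and cumulus markers, 10 stayed under an FPKM of 1 in every library, and the list summed to 15.7 to 23.5 in control and 17.4 to 22.2 in aminophylline libraries. Theca and stroma (0.812 to 1.98), erythrocyte (0.0486 to 0.586) and endothelial (5.68 to 8.96) markers were low in all libraries. The labels number the libraries 1 to 3 in each group without naming their mice, so p-values measure the spread between these libraries, which may be technical. In bulk RNA, fewer cells of a type and less RNA per cell cannot be told apart.

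The family was abundant in these oocytes, Tcl1 above all, and no member differed between control and aminophylline beyond the spread between libraries. Together the 6 genes had a summed FPKM of 7116, 6963 and 5533 in control 1, 2 and 3 and of 6647, 6460 and 5937 in aminophylline 1, 2 and 3. The group means were 6537 ± 873 (SD, n = 3) and 6348 ± 368 (SD, n = 3), and the aminophylline values lay within the range of the control values. The family took 1.19% ± 0.112 of all FPKM in control and 1.13% ± 0.0254 in aminophylline libraries (SD, n = 3 each), or 0.812% ± 0.111 and 0.787% ± 0.0518 of the reads.

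Tcl1, the founding member and Akt partner, had the highest level of the family in every library. Its FPKM was 4230, 4613 and 3357 in control 1, 2 and 3 and 4226, 4003 and 3477 in aminophylline 1, 2 and 3. That placed it between rank 11 and rank 14 of all 25631 genes, with 90824 to 198491 reads per library. Library 3 gave the lowest value in each group, and the groups overlapped. The means were 4067 ± 644 and 3902 ± 384 (SD, n = 3 each), a log2 difference (aminophylline minus control, here and throughout, on the log2(FPKM + 1) scale) of -0.05 ± 0.17 (SE, limma adjusted p = 0.947). The 95% interval of the difference reached from -26% to 25.8% relative to control.

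Tcl1b1 was next, with an FPKM of 994, 841 and 799 in control 1, 2 and 3 and of 886, 914 and 929 in aminophylline 1, 2 and 3. The aminophylline libraries were close to each other and lay inside the control range. The log2 difference was 0.06 ± 0.15 (SE, limma adjusted p = 0.929), with an interval from -17.2% to 30.7%.

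Tcl1b3 gave an FPKM of 611, 535 and 467 in control 1, 2 and 3 and of 527, 534 and 522 in aminophylline 1, 2 and 3. Its aminophylline values, 528 ± 5.87 (SD, n = 3), lay close together, inside the wider control range, 538 ± 71.8 (SD, n = 3). The log2 difference was -0.018 ± 0.15 (SE, limma adjusted p = 0.979), with an interval from -21.8% to 24.7%.

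Tcl1b2 gave an FPKM of 701, 468 and 423 in control 1, 2 and 3 and of 517, 458 and 485 in aminophylline 1, 2 and 3. Control 1 stood above the other 5 libraries, which overlapped. The log2 difference was -0.09 ± 0.19 (SE, limma adjusted p = 0.911), with an interval from -30.2% to 26.2%. Without control 1 it was 0.13.

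Tcl1b4 gave an FPKM of 457, 396 and 383 in control 1, 2 and 3 and of 392, 442 and 411 in aminophylline 1, 2 and 3, with overlapping groups. Its log2 difference was 0.013 ± 0.15 (SE, limma adjusted p = 0.983), with an interval from -19.5% to 26.5%. Rescaled to a common sum (TPM), the value was -0.030, so its sign depended on the scaling.

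Tcl1b5 had the lowest level of the family, with an FPKM of 124, 110 and 102 in control 1, 2 and 3 and of 99.6, 109 and 112 in aminophylline 1, 2 and 3. Even so it ranked between 839 and 1021 of all genes and rested on 1646 to 4440 reads per library. The groups overlapped and the log2 difference was -0.06 ± 0.15 (SE, limma adjusted p = 0.924), with an interval from -24.3% to 21%.

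**Figure D1:**
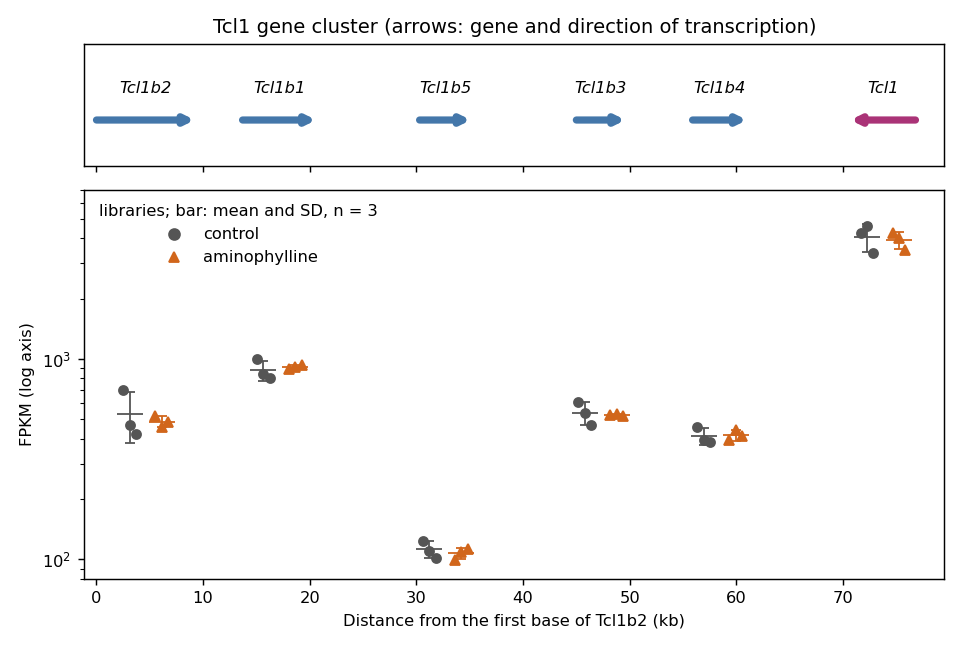
The upper panel draws the 6 genes to scale along the cluster (kb from the first base of Tcl1b2, arrows in the direction of transcription), and the lower panel plots the FPKM of each library (log axis) under its gene, with the mean and SD of the 3 control and 3 aminophylline libraries. Levels ran from about 109 FPKM for Tcl1b5 to 3984 for Tcl1 over all libraries, and within each gene the groups overlapped.

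Among all 10340 genes that passed the filter, 750 (7.25%) had an unadjusted limma p under 0.05, 456 of them higher (4.41%) and 294 lower (2.84%) with aminophylline. The adjusted p was under 0.05 for 0 of them (0%). With median centring the split was 281 higher and 502 lower, and with TPM it was 282 and 292 (5.55% in all). Of the 6 members, all of which passed the filter, 0 had an unadjusted p under 0.05, and the unadjusted limma p ran from 0.646 (Tcl1b2) to 0.93 (Tcl1b4). The groups did not overlap in 1290 of the tested genes (12.5%; higher in 7.51%, lower in 4.96%) and in 0 of the 6 members. The median log2 difference of the members was -0.03, and that of all tested genes was 0.10. Tcl1b1 and Tcl1b4 had a higher mean with aminophylline and the other members a lower one, each within its error, and with median centring both of the former turned lower too.

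**Figure D2:**
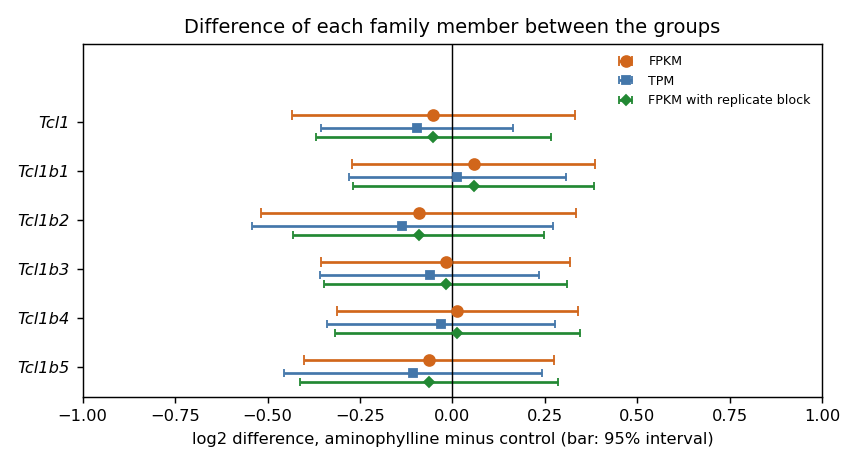
Log2 difference of each member (aminophylline minus control, on the log2(FPKM + 1) scale) with its 95% interval from limma. Each gene is also drawn with TPM and with the replicate number as a block. All intervals cross 0. The 6 from FPKM without the block stay between -0.52 and 0.39, and the TPM interval of Tcl1b2 reaches -0.54.

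The order of the levels was nearly fixed from library to library. Tcl1 exceeded Tcl1b1 in 6 of 6 libraries, by 3.74 to 5.49 times. Tcl1b1 exceeded Tcl1b3 in 6 of 6, by 1.57 to 1.78 times. Tcl1b3 and Tcl1b2 were not separated beyond their spread, since Tcl1b3 was higher in 5 of 6 libraries and the ratio ran from 0.872, in control 1, to 1.17. Tcl1b2 exceeded Tcl1b4 in 6 of 6 libraries, by 1.04 to 1.53 times, and Tcl1b4 exceeded Tcl1b5 in 6 of 6, by 3.61 to 4.05 times. FPKM is per length, so these levels can be set beside each other, but stretches shared between members limit how exactly reads can be assigned. Of all windows of 50 bases in a member's transcripts, 34.1% in Tcl1b3, 24.0% in Tcl1b2, 20.8% in Tcl1b5, 12.4% in Tcl1b1 and 2.88% in Tcl1b4 occurred in another member too, and 0% did in Tcl1. The transcripts of the Tcl1b genes were 87.0% to 93.4% identical pair by pair, and how the authors counted reads that fit several genes is not given in the sources used here, so the split between Tcl1b members is uncertain.

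The make-up of the family was likewise similar in both groups. Tcl1 supplied 62.1% ± 3.63 of the summed FPKM in control and 61.4% ± 2.55 in aminophylline libraries (SD, n = 3 each), from 58.6% in aminophylline 3 to 66.3% in control 2. Tcl1b1 followed with 13.5% ± 1.25 and 14.4% ± 1.18, and Tcl1b5 gave 1.72% ± 0.14 and 1.69% ± 0.194. The other three genes lay between these, and the share of Tcl1b2 was highest in control 1 (9.85%). The 5 Tcl1b genes together summed to 2470 ± 370 FPKM in control and 2446 ± 21.7 in aminophylline libraries (SD, n = 3 each).

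**Figure D3:**
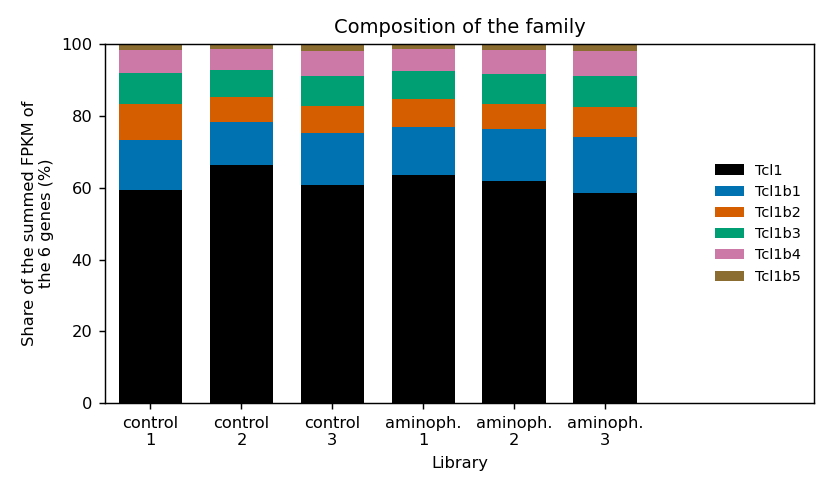
Stacked bars give the share of each gene in the summed FPKM of the 6 genes, in percent, for each of the 6 libraries. Tcl1 fills 58.6% to 66.3% of every bar, and the bars of both groups look alike.

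A ratio between members within a library does not move with the scaling of that library. Tcl1b1 stood to Tcl1 as 0.218 ± 0.0313 in control and 0.235 ± 0.0294 in aminophylline libraries (SD, n = 3 each), and the groups of all 5 ratios to Tcl1 overlapped. Ratios to Tcl1b1 were added after the data had been seen, and 3 of these 4 overlapped too. The ratio of Tcl1b5 to Tcl1b1 was 0.125, 0.130 and 0.128 in control 1, 2 and 3 and 0.113, 0.119 and 0.121 in aminophylline 1, 2 and 3. This 1 of 9 ratios did not overlap, with aminophylline means at 92.0% of control, and it is given as a description with no test. The FPKM of 12.5% of tested genes did not overlap. That share is for single genes, and none was computed for ratios between genes.

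The spread between libraries was uneven. Control 1 had the highest value of the 6 libraries in 5 of the 6 members, and control 3 had the lowest in 5 of 6. Over all libraries the coefficient of variation was larger in the control than in the aminophylline group for each member, for example 28.1% against 6.07% for Tcl1b2 and 13.4% against 1.11% for Tcl1b3. Without control 1 this held for 4 of the 6 members, the control value for Tcl1b2 was 7.22%, and Tcl1b4 (2.29% against 6.15%) and Tcl1b5 (4.71% against 6.05%) went the other way. A wider control spread was not particular to the family. Over all libraries the SD was larger in control for the 19 oocyte markers except Khdc3 (15.4 against 29) and Zar1 (92.6 against 102). The share of all tested genes with a wider control spread was not computed. Counting error, from the fewest reads of each gene, was 0.332% for Tcl1, 1.26% for Tcl1b3 and 2.46% for Tcl1b5.

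Control 1 also stood apart in its macrophage markers. That list summed to an FPKM of 207 in control 1 and to 81.0 to 102 in the other libraries, and 9 of its 10 genes were highest there. The exception was C1qb, a complement component, which made up nearly all of the sum elsewhere (79.2 to 99.8) and was lowest in control 1 (72.3). Without C1qb the list summed to 134 in control 1 and to 1.21 to 2.73 in the other libraries. Of the defining genes, C1qc, another complement component, was at 14.8 in control 1 and at 0 in the others, and Lyz2, a lysozyme, was at 66.4 and at most 0.573. Of the 8 lymphocyte markers listed, 7 stayed under an FPKM of 1 in all libraries and 5 were highest in control 1. That list summed to 38.7 to 58 in control and 35.3 to 36 in aminophylline libraries, almost all of it from Ms4a1. The part of either cell type in the Tcl1b values of control 1 was not tested.

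**Figure D4:**
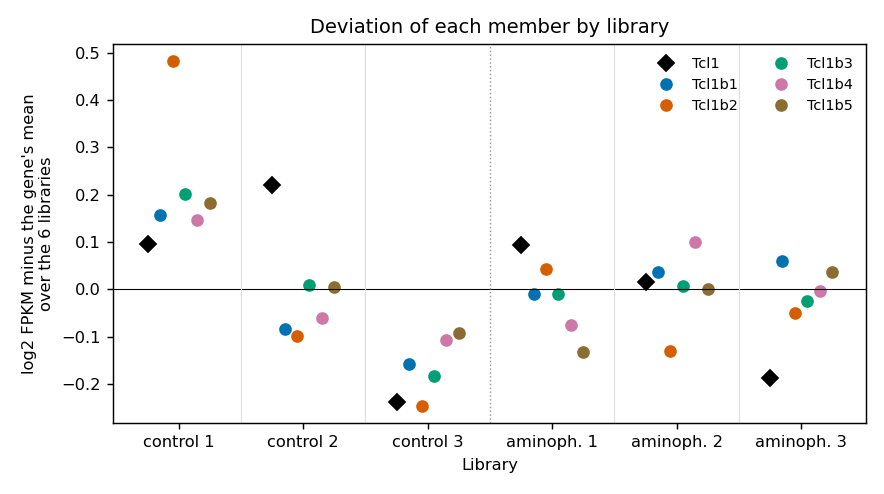
Points give, for each gene and library, the log2 FPKM minus that gene's mean over the 6 libraries. All Tcl1b genes lie above 0 in control 1, with Tcl1b2 at 0.48, and all 6 genes lie below 0 in control 3.

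Over the 6 libraries the log2 levels of the Tcl1b genes varied together, with Pearson correlations of 0.666 to 0.904 in their 10 pairs, and those of Tcl1 with a Tcl1b gene were 0.214 to 0.629. Without control 1 the correlations between Tcl1b genes ran from -0.098 to 0.737 and those of Tcl1 with a Tcl1b gene from 0.00186 to 0.73, so that these ranges were alike. The points share library depth and scaling, and the Tcl1b genes share sequence, so these values are descriptions. Of the 4271 tested genes with a mean FPKM of at least 10, those whose pattern was most like that of Tcl1 were 1700028J19Rik (0.989), Gm31987 (0.989), Igsf23 (0.986), Tarm1 (0.983) and Gm3924 (0.98). In that order Tcl1b3 came at place 662, Tcl1b2 at 1146, Tcl1b4 at 1472, Tcl1b1 at 1494 and Tcl1b5 at 1519.

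Of the 6 nearest protein-coding neighbours, 3 on each side, Glrx5 alone reached the levels of the cluster. Glrx5, the nearest gene before it, 103 kb away, encodes a mitochondrial glutaredoxin of iron-sulfur cluster assembly. Its FPKM was 464, 615 and 485 in control 1, 2 and 3 and 630, 513 and 584 in aminophylline 1, 2 and 3, with overlapping groups and a log2 difference of 0.15. The next, Syne3, lay between 0.956 and 1.63, and Clmn reached at most 0.0578. On the far side Tunar reached 0.226, D430019H16Rik 0.0122 and Bdkrb2 0.289. Of the relatives outside the cluster, Mtcp1, the other Akt-binding member of the TCL1 family of proteins, was under the filter at 0.0741 to 0.827. Cmc4, which is encoded at the Mtcp1 locus but is a mitochondrial protein of another fold, had an FPKM of 107, 108 and 94.6 in control 1, 2 and 3 and 108, 112 and 111 in aminophylline 1, 2 and 3, with overlapping groups.

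The messages of Akt1 and Akt2, which encode forms of the kinase that TCL1 proteins bind, were far less abundant than that of Tcl1. Akt1 had an FPKM of 2.21, 3.17 and 6.94 in control 1, 2 and 3 and of 4.74, 4.66 and 7.06 in aminophylline 1, 2 and 3, a log2 difference of 0.43 ± 0.32 (SE, limma adjusted p = 0.747). Its control libraries differed among themselves more than the groups did, and the level of Tcl1 was 484 to 1913 times that of Akt1 in the same library. Akt2 was at 0.528, 0.962 and 1.14 in control and 1.01, 1.66 and 1.4 in aminophylline libraries. The groups overlapped for both genes.

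Of a list of 45 genes of the PI3K/Akt pathway, 32 passed the filter and 0 had an unadjusted limma p under 0.05, where 7.25% of all tested genes did. Their median log2 difference was 0.08, and that of all tested genes was 0.10. Groups did not overlap in 3 of the 32 (9.38%, against 12.5% of all tested genes). These were Bad, a cell-death protein that Akt phosphorylates, and Inpp5d, a lipid phosphatase that opposes PI3K, both higher with aminophylline, and Mapkap1, a subunit of the kinase complex mTORC2, lower with it. With the replicate number as a block, 3 genes had an unadjusted p under 0.05, all higher, where 14.2% of all tested genes had one. The FPKM of Pik3cd, a catalytic subunit of PI3K, was 8.81, 10.5 and 17.4 in control 1, 2 and 3 and 11.4, 19 and 21.3 in aminophylline 1, 2 and 3. That of Foxo1, a transcription factor that Akt keeps out of the nucleus, was 17.6, 15.8 and 29 and 20.1, 29.5 and 38.8, and that of Bad was 1.78, 0.978 and 0.744 and 1.86, 1.8 and 2.13. Under the block the limma adjusted p was 0.28, 0.258 and 0.299, so that none passed over all genes, of which 47 did (0.455%). The same block left all 6 members of the Tcl1 family without a call.

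**Figure D5:**
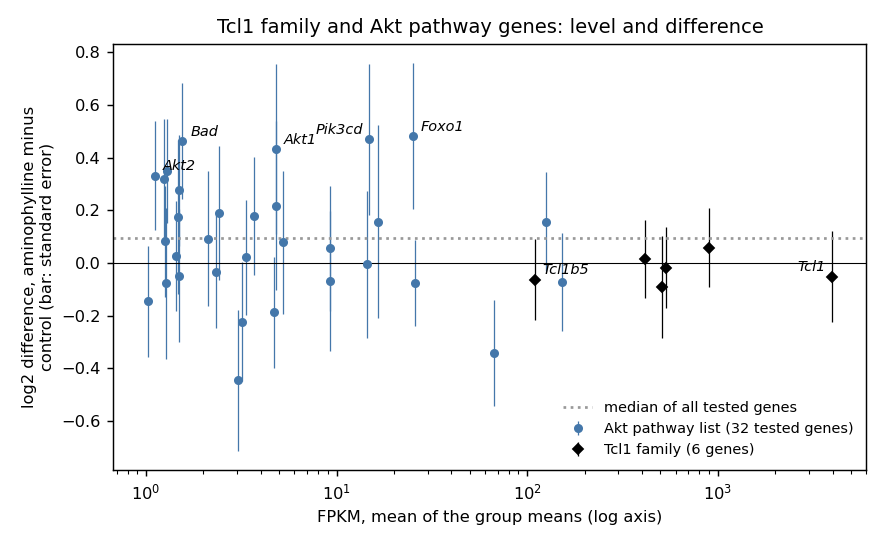
Mean FPKM (log axis) against log2 difference (aminophylline minus control, on the log2(FPKM + 1) scale, bars: standard error) for the 6 members and the 32 tested genes of the Akt pathway list, with the median of all tested genes (0.10) as a dotted line. The members lie at the right, near 0, and the list genes scatter more widely at lower levels.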

How the data were processed

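RNA of 6 oocyte libraries was sequenced, and the authors deposited FPKM values per gene. GRCm38 (mm10) is named in the submitters' processing notes, while the aligner, counter and annotation are not given in the sources used here. FPKM ratios between libraries gave whole reads for 100% of the genes (relative tolerance 1e-06). Library totals of 14112341 to 33641283 reads set the counting error, and intervals for counts cover no other error.

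Groups were compared with limma 3.58.1 (R 4.3.3; moderated variance with a trend, two-sided) on log2(FPKM + 1), keeping genes that reached an FPKM of 1 in 3 or more libraries, with Benjamini-Hochberg adjustment over all 10340 genes tested. It replaced the paper's unpaired test per gene, since the values are FPKM. The code was tested on simulated data. Same-numbered libraries deviated together (correlations 0.138, 0.14 and 0.552 over genes), so the replicate numbers of the labels were taken to pair them, although no source says that they share mice. A block for them was run as an alternative.

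Named were the 6 members, Akt1, Akt2, Mtcp1, Cmc4, Akt-list genes with an unadjusted p under 0.05, the 3 nearest protein-coding genes on either side, and the 5 genes most like Tcl1. Another gene that was to be named is not reported here. Genes without overlap, single marker genes and genes sharing a motif were named after their values or sequences were seen, and the values without C1qb or control 1 were added then. Members and lists were chosen with earlier results of these data known. Alternatives were a pseudocount of 0.1, no filter, a mean FPKM of at least 5, TPM, quantile normalization, median centring, an unmoderated model, library weights, voom on the recovered reads and leaving out each library. Positions came from GENCODE M21 and promoters from RefSeq (GRCm38.p6).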

Additional observations from a re-analysis of the deposited data

How the results depend on the processing

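All 16 alternatives left the 6 members with 0 calls, and of 96 recomputed member differences 82 kept their direction and 14 turned. The 82 overstate stability. No filter, the mean FPKM of at least 5, the unmoderated model and the replicate block cannot change a member's difference, so their values kept its direction by construction. Leaving out each library in turn gave log2 differences from -0.18 to 0.045 for Tcl1, -0.0076 to 0.15 for Tcl1b1, -0.24 to 0.13 for Tcl1b2, -0.11 to 0.078 for Tcl1b3, -0.037 to 0.090 for Tcl1b4 and -0.12 to 0.012 for Tcl1b5. The lower ends came without control 3, and the upper ends without control 1, except for Tcl1 (control 2). Tcl1b1 turned to -0.025 with median centring and to -0.0022 with library weights, and Tcl1b4 turned to -0.030 with TPM, to -0.069 when medians were centred and to -0.10 after quantile normalization. The median over all genes, 0.10, moved under these scalings too, to 0.067, 0.013 and 0.010.

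The count of Akt-list genes with an unadjusted p under 0.05, 0 of 32, was 1 of 45, a higher gene, with no filter. It was 1 of 32, a lower gene, with each of quantile normalization, median centring and the unmoderated model. The replicate block gave 3 of 32 and library weights 7 of 32 (6 higher, 1 lower). With a library left out the count was 0 to 6 (6 of 31 without control 3). Over all genes the count of 750 of 10340 became 1404 of 25631 with no filter. It was 875 of 10340 with quantile normalization, 783 with median centring and 677 with the unmoderated model. The replicate block gave 1467 (47 at an adjusted p under 0.05) and library weights 2011. With a library left out the count over all genes was 316 to 1593 (316 without aminophylline 2, 360 without control 1, 412 without aminophylline 3, 1421 of 10023 without control 3, 1593 without control 2). The block changed no member's call. The cause of these shifts was not tested. The summed FPKM and all ratios were recomputed 62 times. Leaving out 1 of 3 libraries cannot move such a difference by the SD between replicates, so those runs decide nothing about stability. The log2 difference of the summed FPKM was -0.035 (SD between replicates 0.154). It was -0.079 with TPM and -0.069 after quantile normalization. The difference in the ratio of Tcl1b5 to Tcl1b1 ran from -0.14 to -0.09 on the log2 scale with a library left out. Its groups did not overlap, so leaving out a library could not change the direction. With 3 libraries per group, the lowest end of any member's interval was -30.2% (Tcl1b2, up to 26.2%). The highest end was 30.7% (Tcl1b1, from -17.2%), and no single interval covered both ends.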
